A study of Mus musculus with 3 samples.

Results

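The genes that bind, make, break down and sense retinoic acid were followed across 3 populations of mouse cells that had been sorted for green fluorescent protein (GFP). The set held 9 genes chosen by name: Stra6, Crabp1, Crabp2, Dhrs3, Aldh1a2, Cyp26a1, Cyp26b1, Rara and Rarb. All 9 had a probe, 12 probes in all, among the 16593 named genes of the array. The cells came from Hb9-GFP embryonic stem cells, where GFP marks activity of the Hb9 gene (Mnx1), whose product is a regulator of motor neuron fate. The labels state that these stem cells were kept on feeder cells in serum, and motor neurons were then produced in embryoid bodies exposed to retinoic acid and purmorphamine, which activates Hedgehog signalling. All 3 populations, GFP high (called motor neurons by the labels), GFP low and GFP negative, therefore came from retinoic acid-treated cultures, and no untreated culture was analysed here. Each population had 1 array without replicates, so no difference below has a test or a p-value. How many cultures or sorts stood behind each array is not given in the sources used here.

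Retinoic acid is made from vitamin A. Cells take up retinol, oxidise it reversibly to retinal and then irreversibly to retinoic acid, which small binding proteins carry through the cytoplasm to nuclear receptors of the RAR family paired with RXR partners. The enzymes of the CYP26 family destroy the ligand, and because Cyp26a1 and Rarb are themselves switched on by retinoic acid through response elements near their start sites, both are widely used as readouts of the signal. In the developing spinal cord, retinoic acid from the neighbouring mesoderm promotes neuronal differentiation and motor neuron specification, which is why it is added to cultures like these.

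The 2 textbook response elements of the set could be read directly from promoter sequence. The classical element is a direct repeat of a hexamer with a spacer of 5 bases (DR5). Windows of 300 bases, from 250 before to 50 after each RefSeq start site in build GRCm38.p6, were searched on both strands for DR5, DR2 and DR1 repeats, with both purines allowed at the first base of the hexamer and G or T after its invariant G. Of the 9 genes, 8 had such a window, 16 windows in all. A DR5 stood in 2 of the 16, one of Rarb and one of Cyp26a1, against 0.0974% of all 32851 windows. DR2 was in 0 of the 16 and 0.268% of all windows, and DR1 in 0 and 0.222%. Both windows are shown because these are the set's own retinoic acid readouts, with the repeat in capitals. The Rarb window is chr14:16575427-16575726 on the minus strand, with the repeat 53 to 37 bases before the start. The Cyp26a1 window is chr19:37697558-37697857 on the plus strand, with the repeat 32 to 16 bases before the start and reading as a DR5 on the opposite strand.
Rarb: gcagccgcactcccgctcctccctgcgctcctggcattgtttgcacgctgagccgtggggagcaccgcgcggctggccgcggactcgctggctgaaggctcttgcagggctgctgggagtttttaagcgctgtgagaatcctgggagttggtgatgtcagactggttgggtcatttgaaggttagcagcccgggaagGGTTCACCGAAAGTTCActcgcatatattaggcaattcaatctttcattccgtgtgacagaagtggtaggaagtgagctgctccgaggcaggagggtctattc
Cyp26a1: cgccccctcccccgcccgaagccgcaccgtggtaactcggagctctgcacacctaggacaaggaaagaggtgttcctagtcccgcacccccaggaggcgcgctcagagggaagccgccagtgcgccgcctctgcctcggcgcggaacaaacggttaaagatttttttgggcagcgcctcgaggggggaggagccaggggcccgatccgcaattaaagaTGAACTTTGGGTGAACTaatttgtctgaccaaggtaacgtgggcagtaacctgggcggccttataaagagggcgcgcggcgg
A match is a run of letters, not a measured binding site, and its absence from the other windows says only that these letters are not there.

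Each probe gave a linear signal intensity per array and a detection p-value against the control probes of that array. Detection meant a p-value below 0.01. Differences were taken between background-corrected, quantile-normalized log2 signals of each gene's brightest probe, and a size of at least 2-fold was counted. Of the 9 genes, 7 were detected on all 3 arrays, 1 (Aldh1a2) on 1 array and 1 (Dhrs3) on none, while 52.7% of all genes were detected on at least 1 array. The arrays were alike in brightness, with median intensities from 105.3 to 109.9 and 11689 to 11736 detected probes. As the only gauge of spread, the brightest and second detected probes of 2370 genes were compared. The SD per probe of the log2 difference came to 0.335 (GFP high and negative), 0.263 (GFP high and low) and 0.29 (GFP low and negative). Among 481 genes whose probes both lay below a log2 signal of 7 it was 0.433, 0.348 and 0.382, and among 244 genes with both at 10 or above it was 0.176, 0.122 and 0.161. Effects common to a whole array, and differences between cultures and sorts, are not in this gauge.

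The sorted populations were described by marker genes, chosen with earlier results of these data known. Mnx1 had log2 signals of 7.99, 5.30 and 5.16 in the GFP high, low and negative cells. The cells were sorted on GFP that marks activity of this gene, so this order is no independent check of identity. Of 10 motor neuron markers, all detected, 9 were higher by 2-fold or more in the GFP high than the GFP negative population. The count was 8 with undetected genes at their bound. The share of the 8613 genes detected in that comparison was 6.99%. Mnx1 is on this list and among the higher ones, so the count is not independent of the sort. Of 12 neuronal markers, 9 were detected on all 3 arrays, with signals summing to 21459, 14249 and 5602 in the GFP high, low and negative cells. No array detected Tubb3, Nefl or Snap25. The spinal interneuron markers En1, Lhx1 and Pax2 were also higher in GFP high than in negative cells, by 13.9-fold, 5.6-fold and 4.8-fold. Gata2 and Tal1, from the same list, were lower, by 3.0-fold and 2.9-fold.

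**Figure D1:**
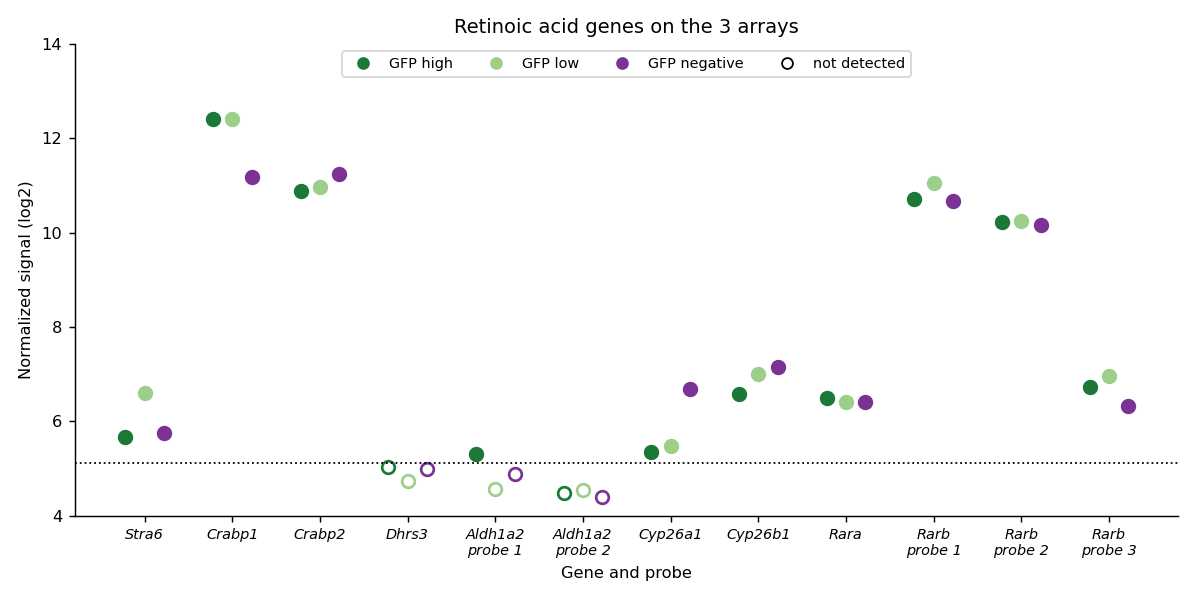
Normalized log2 signal (y axis) of all 12 probes of the 9 genes (x axis) on the GFP high, GFP low and GFP negative arrays, 1 point per array. Open points were not detected, and the dotted line marks the lowest signal of any detected probe, 5.13. Crabp1 is lower and Cyp26a1 higher in GFP negative cells, Stra6 is highest in GFP low cells, and heights are not comparable between probes.

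Between the GFP high and the GFP negative population, the binding protein gene Crabp1 was higher and the breakdown gene Cyp26a1 lower in GFP high cells, and the remaining members differed by less than 2-fold. Of the 8 members detected in this comparison, 1 was higher by 2-fold or more, against 6.99% of all 8613 genes, and 1 lower by 2-fold or more, against 9.88%. Their median log2 difference was -0.02, and that of all genes 0.03. Between GFP low and GFP negative cells the same 2 genes passed 2-fold in the same directions. Of 7 detected members 1 was higher by 2-fold or more, against 3.37% of 8516 genes, and 1 lower by as much, against 2.68%. Their median was 0.00, beside -0.02 for all genes. Between GFP high and GFP low cells 0 of 8 members were higher by 2-fold or more, against 1.1% of 8427 genes, and 0 lower, against 4.17%, with a median of -0.10 beside 0.03. With so few genes these counts say nothing about the set as a whole. The comparisons share arrays, so the GFP negative signal enters both differences of Crabp1 and both of Cyp26a1.

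**Figure D2:**
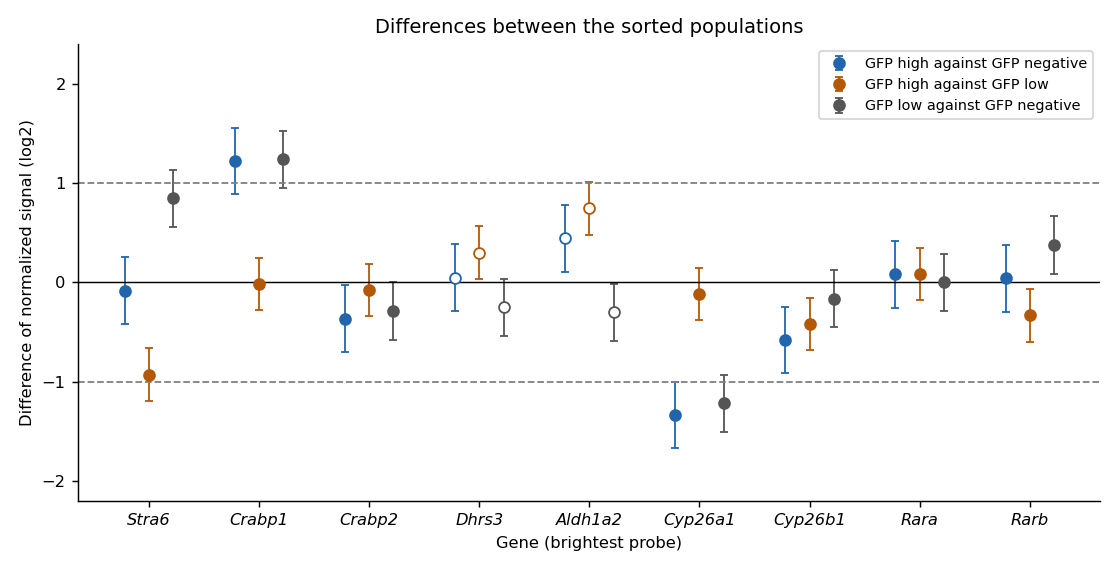
Log2 difference of normalized signal (y axis) of each gene's brightest probe (x axis) in the 3 comparisons, with bars of 1 between-probe SD either way and dashed lines at 2-fold. Open points had at least 1 array without detection. Crabp1 and Cyp26a1 lie beyond 2-fold against GFP negative cells, at 1.22 and -1.34 for GFP high, and Stra6 lies just inside 2-fold, at -0.93 for GFP high against low.

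Uptake and storage come first in the pathway. Stra6, the membrane receptor that imports retinol from its plasma carrier, had intensities of 125.1, 184.5 and 132.5 in GFP high, low and negative cells, or 5.67, 6.60 and 5.75 as normalized log2 signal. GFP low cells stood above both other populations, which lay within 0.08 of each other, less than the between-probe SD. The signal was 1.90-fold lower in the GFP high than the GFP low population, with 4.84% of detected genes lower by as much or more. It was 1.80-fold higher in the GFP low than the GFP negative population, with 4.79% of genes higher by as much or more. Stra6 was therefore the member closest to the 2-fold limit without passing it, and in the authors' value table the differences were -1.22 and 1.09 on the log2 scale, past it. Without background correction they were -0.44 and 0.40, and with an offset of 50 they were -0.625 and 0.57. The size of the Stra6 differences thus depended on the processing, and their direction did not. Transcription factors of spinal interneurons, cells that these cultures can also hold, were split. Between GFP high and low cells, 5 of 9 detected were lower by 2-fold or more, 4 with bounds, against 4.17% of all genes. En1, Pax2 and Lhx1 went the other way, by 0.89, 0.72 and 0.45 in log2. Between GFP low and negative cells 8 of 9 were higher by 2-fold or more, 7 with bounds, against 3.37%. Between GFP high and negative cells Stra6 differed little. There, 3 of 8 of these factors were higher and 2 lower by 2-fold or more, against 6.99% and 9.88%. Their part in the Stra6 difference was not tested. In sorted bulk samples like these, fewer cells of a type and less RNA per cell cannot be told apart.

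Dhrs3, which reduces retinal back to retinol and so holds down the supply of precursor, had intensities of 108.8, 106.7 and 110.9, with detection p-values of 0.0163, 0.0677 and 0.0238. It was not detected on any array, and no difference is given for it. Aldh1a2, the main embryonic enzyme that makes retinoic acid and a gene of limb-level spinal motor neurons, was detected in GFP high cells only. Its brightest probe had intensities of 115.5, 102.5 and 108.4 and detection p-values of 0.00752, 0.14 and 0.0388. Its signal was at least 1.13-fold higher in the GFP high than the GFP negative population and at least 1.14-fold higher than in GFP low cells, and both bounds are smaller than the between-probe SD. A second Aldh1a2 probe was not detected on any array, at intensities from 95.4 to 101.8. The presence of Aldh1a2 in GFP high cells therefore rests on 1 dim probe near the detection limit.

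The binding proteins Crabp1 and Crabp2 differed from each other in pattern. Crabp1, a cytoplasmic retinoic acid-binding protein with high affinity for the ligand, had intensities of 5085.4, 5768.1 and 2393.1 in the GFP high, low and negative cells, or 12.40, 12.42 and 11.18 as normalized log2 signal. Both GFP-positive populations were alike and the GFP negative population was lower. Crabp1 was 2.33-fold higher in the GFP high than the GFP negative population, where 4.14% of detected genes were higher by as much or more, and 2.36-fold higher in the GFP low than the GFP negative population, where 1.86% were. GFP high and GFP low cells differed by 1.01-fold. Both differences against GFP negative cells exceeded the between-probe SD, of all genes and of bright genes. Crabp2, the related protein that hands retinoic acid to its receptors, did not share this pattern. Its intensities were 1875.9, 2175.1 and 2492.2, and its log2 signals 10.88, 10.96 and 11.25, with GFP negative cells the highest. It was 1.29-fold lower in GFP high and 1.22-fold lower in the GFP low than the GFP negative population, and its difference of -0.08 between GFP high and low cells lay within the between-probe SD of 0.263. Each binding protein was measured by 1 probe.

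Neuronal markers, like Crabp1, were higher in both GFP-positive populations than in GFP negative cells. Of 9 detected, 8 were higher by 2-fold or more in GFP high than in negative cells, against 6.99% of all genes, and 6 in GFP low than in negative cells, against 3.37%. Between GFP high and low cells, where Crabp1 was level, 2 of 9 were higher by 2-fold or more, against 1.1%. The median log2 difference of these markers was 0.33 there. Their part in the Crabp1 difference was not tested. The step between the GFP-positive populations that the motor neuron markers showed was absent from Crabp1. Of these 10 markers, 9 (Mnx1 included) were higher by 2-fold or more in the GFP high than the GFP low population. The count was 8 with undetected genes at their bound, and Crabp1 differed by -0.02 on the log2 scale.

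**Figure D3:**
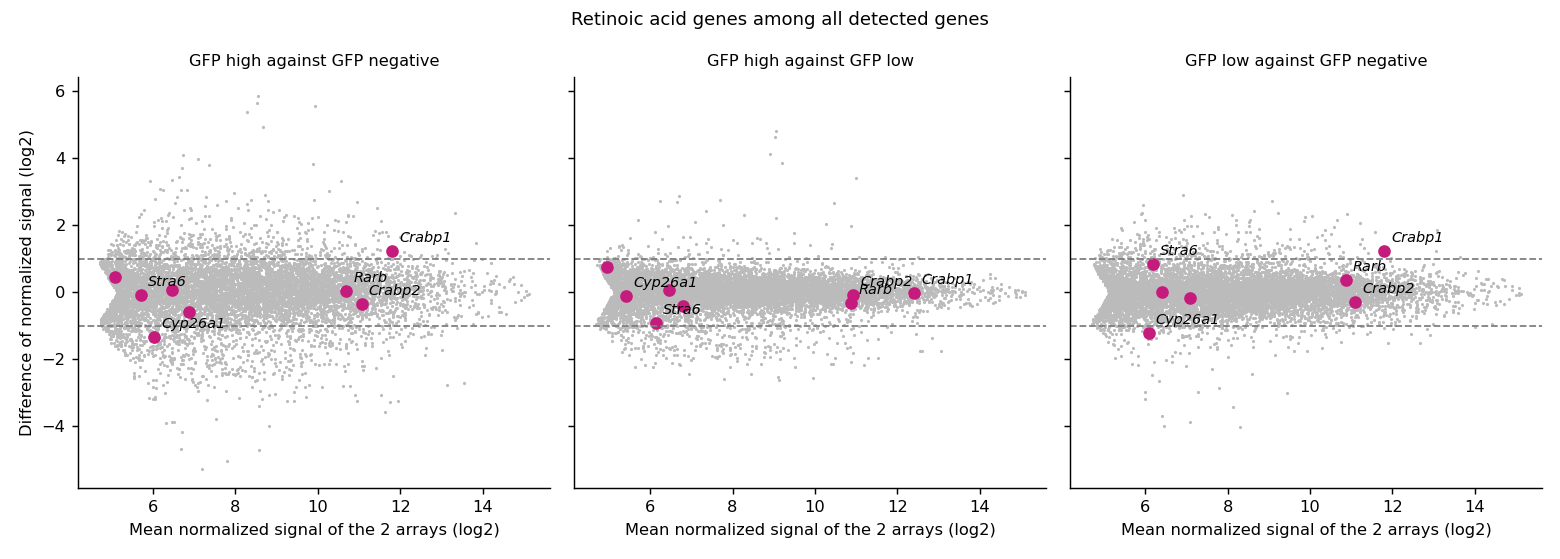
Log2 difference (y axis) against the mean normalized log2 signal of the 2 arrays compared (x axis), 1 grey point per detected gene, with the retinoic acid genes in pink and dashed lines at 2-fold. Crabp1 lies among bright genes, where few differ by 2-fold, and Cyp26a1 and Stra6 lie among dim genes, where the scatter is wider.

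Of the breakdown enzymes, Cyp26a1 passed 2-fold and Cyp26b1 did not, and Cyp2s1, another member of the cytochrome family on the pathway lists, was not detected. Cyp26a1, the retinoic acid hydroxylase induced by its own substrate, had intensities of 116.4, 127.5 and 182.3 in the GFP high, low and negative cells, with detection p-values of 0.00752, 0.00251 and 0. The normalized log2 signals were 5.35, 5.47 and 6.69, and the 2 GFP-positive populations lay near 5.13, the lowest detected signal. Cyp26a1 was 2.52-fold lower in the GFP high than the GFP negative population, where 6.0% of genes were lower by as much or more, and 2.33-fold lower in the GFP low than the GFP negative population, where 1.28% were. Between GFP high and low cells the step was 1.08-fold, or -0.12 in log2, within the between-probe SD. Folds near the detection limit are drawn toward 1 by the offset added to the signal. The authors' value table gave log2 differences of -1.81 and -1.61 against GFP negative cells, and without background correction they were -0.60 and -0.56. The direction was the same in each and the size was not.

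Cyp26b1, the second enzyme of the family and active in the developing hindbrain and limb, had intensities of 166.7, 216.8 and 222.7 and log2 signals of 6.58, 6.998 and 7.16. GFP high cells were the lowest. Cyp26b1 was 1.495-fold lower in the GFP high than the GFP negative population and 1.34-fold lower than in GFP low cells, log2 differences of -0.58 and -0.42 that exceed the between-probe SD of all genes but not the 2-fold limit. Between GFP low and negative cells the log2 difference was -0.16, within it. The populations of lowest signal thus differed between the enzymes: both GFP-positive populations for Cyp26a1, the GFP high population for Cyp26b1.

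**Figure D4:**
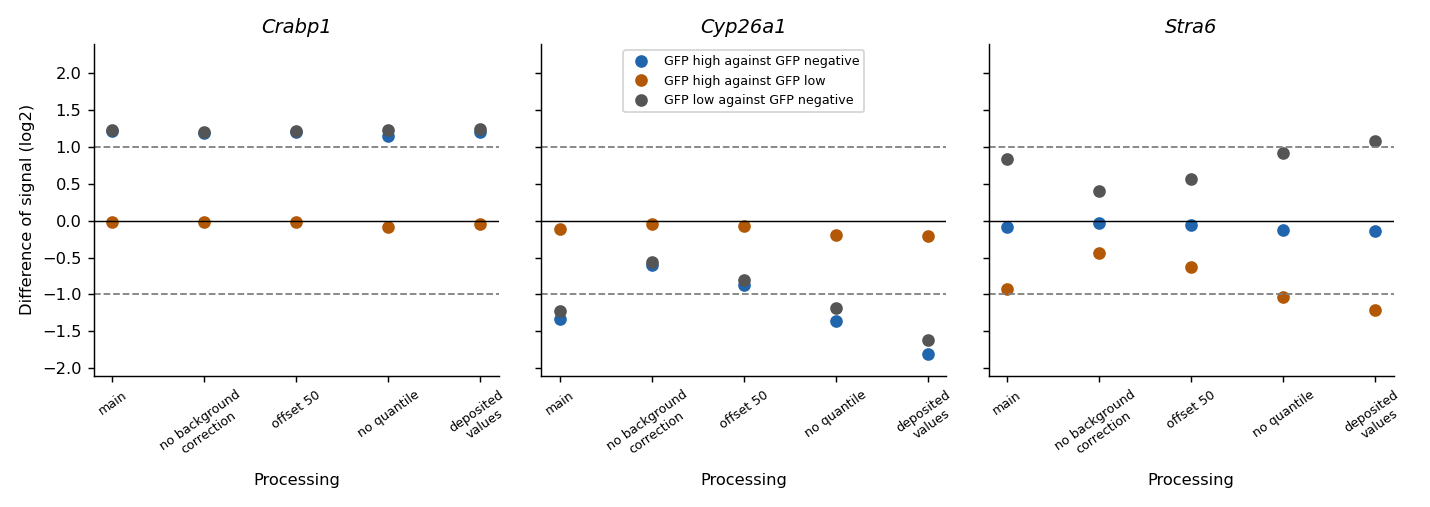
Log2 difference (y axis) of Crabp1, Cyp26a1 and Stra6 in the 3 comparisons under the main processing and 4 alternatives (x axis), with dashed lines at 2-fold. Crabp1 against GFP negative cells stays between 1.15 and 1.25, while Cyp26a1 in GFP high cells ranges from -1.81 to -0.60 and Stra6 in GFP low against negative cells from 0.40 to 1.09.

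Markers of other cell types were also higher in GFP negative cells, not all in the pattern of Cyp26a1. The 14 neural progenitor and radial glia markers had signals summing to 8975, 12312 and 19462 in the GFP high, low and negative cells. Of 11 detected, 6 were lower by 2-fold or more in GFP high than in negative cells, 5 with bounds, against 9.88% of all genes, while Olig1 and Olig2 were higher by 0.59 and 0.50 in log2. Between GFP low and negative cells, where Cyp26a1 differed as much, 3 of 11 were lower by 2-fold or more, against 2.68%. Between GFP high and low cells, where Cyp26a1 differed little, 4 of 10 were lower by 2-fold or more, against 4.17%. The 15 endoderm markers with a probe summed to 965, 1290 and 5521. Of these, 7 of 11 detected were lower by 2-fold or more in GFP high than in negative cells. They included Gata6, by at least 5.74-fold, and Col4a1, by 33.0-fold. Amn and Hnf4a, not detected in GFP negative cells, went the other way by at least 0.48 and 0.335 in log2. Apoe was higher in GFP high cells by 0.08. In GFP low against negative cells 6 of 10 were lower by 2-fold or more, and in GFP high against low cells 3 of 8, 2 with bounds. The defining endoderm genes Gata4, Foxa2, Afp and Apoa1 were not detected on any array. The 14 fibroblast and mesenchyme markers with a probe summed to 510, 916 and 3309. In the same order of comparisons 5 of 6, 4 of 6 and 3 of 3 detected were lower by 2-fold or more. The shares of all genes are those given above. Col1a1, Col1a2 and Col3a1 were not detected on any array. The part of these cells in the Cyp26a1 signal was not tested.

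Rara and Rarb differed by less than 2-fold in every comparison. Rara, the broadly expressed receptor, had intensities of 161.9, 171.6 and 163.6 and log2 signals of 6.49, 6.41 and 6.41, and its differences were at most 0.08, within the between-probe SD. Rarb, the receptor gene that retinoic acid itself induces, had 3 probes detected on all arrays. Its brightest probe gave 1661.3, 2316.2 and 1722.8, or 10.71, 11.05 and 10.67 on the log2 scale, with GFP low cells the highest. That probe was 1.26-fold lower in the GFP high than the GFP low population and 1.30-fold higher in the GFP low than the GFP negative population. The second probe gave log2 signals of 10.23, 10.26 and 10.17, a range of 0.09, and the dimmest 6.72, 6.95 and 6.33, a range of 0.62. All 3 probes were highest in GFP low cells and lowest in GFP negative cells, but they disagreed in size, and the difference between GFP high and GFP negative cells was 0.04, 0.06 and 0.40. These differences lay within the between-probe SD of genes of like brightness, 0.176 for bright and 0.433 for dim genes. Without quantile normalization the brightest probe gave -0.02, so which of the 2 populations was lower is not settled. Against GFP low cells the brightest probe differed by more than the SD of bright genes. It gave -0.33 for GFP high against low (SD 0.122) and 0.37 for GFP low against negative (SD 0.161). The dimmest probe gave -0.23, within the 0.348 of dim genes, and 0.62, above their 0.382. The second probe gave -0.03 and 0.09, within the SD of bright genes. Rarb and Cyp26a1, the carriers of the DR5 repeats shown above, differed in pattern. In the main processing Cyp26a1 was higher by 2-fold or more in GFP negative than in both GFP-positive populations. No Rarb probe was higher in GFP negative than in either GFP-positive population there.

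Other genes of the pathway were taken from 5 lists of 76 names, of which 67 had a probe. Of 39 detected in GFP high or GFP negative cells, 2 were higher by 2-fold or more and 3 lower in GFP high cells, 1 and 2 with undetected genes at their bound, with a median log2 difference of 0.16 beside 0.03 for all genes. Of 35 detected in GFP high or low cells, 2 were higher and 0 lower by 2-fold or more, with a median of 0.05. Of 37 detected in GFP low or negative cells, 1 was higher and 1 lower by 2-fold or more, with a median of 0.03. Over all genes the shares higher and lower were 6.99% and 9.88%, 1.1% and 4.17%, and 3.37% and 2.68% in the same order of comparisons, so with these few genes the counts are not a result about the pathway.

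Among retinoid carriers, 4 of 9 with a probe were detected. Rbp4, the plasma carrier of retinol, was detected in GFP negative cells only, at log2 signals of 4.4, 4.70 and 5.64, and was lower in the GFP high population by at least 1.42-fold. Rbp2, an intracellular retinol-binding protein best known from the intestine, was detected in GFP high cells only, at 5.43, 4.55 and 4.37, and was at least 1.22-fold higher there than in GFP negative cells. Both bounds lie under 2-fold. Fabp5, a fatty acid-binding protein that can also carry retinoic acid, was detected on all arrays at 6.37, 6.50 and 6.15. Of 19 genes of retinol oxidation and retinoic acid synthesis, 7 were detected. In the main processing 0 were higher or lower by 2-fold or more in any comparison. Rdh1 and Rdh12 passed 2-fold in the authors' value table in GFP high against negative cells. Their log2 differences were 1.39 and -1.18, beside 0.73 and -0.625 in the main processing. Rdh1 was not detected in GFP negative cells and Rdh12 not in GFP high cells, with bounds of 1.17-fold and 1.34-fold. The synthesis genes Aldh1a1, Aldh1a3 and Rdh10 were not detected on any array. Adh5, an alcohol dehydrogenase found in most tissues, gave 10.50, 10.39 and 10.26.

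Of 16 other receptors and cofactors with a probe, 11 were detected in GFP high or negative cells. In any comparison 0 were higher or lower by 2-fold or more. Rxrb, an RXR partner of the RARs, had log2 signals of 10.75, 10.54 and 10.62. Rarg, the remaining RAR, was not detected on any array by any of its 3 probes. Against 6.99% and 9.88% of all genes in GFP high against negative cells, a count of 0 of 11 says little about the receptors as a set. In the authors' value table Kat2b, a histone acetyltransferase, and Ncoa3, a receptor coactivator, passed 2-fold in that comparison. Their log2 differences were 1.13 and -1.23, beside 0.74 and -0.63 in the main processing. A second detected Kat2b probe gave 0.43 in the main processing. Ncoa3 was not detected in GFP high cells, and its bound was 1.11-fold.

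Textbook targets of retinoic acid were counted next. Of 17 detected, 1 was higher by 2-fold or more in the GFP high than the GFP negative population and 2 were lower, close to the 6.99% and 9.88% of all genes, with a median of 0.16. Nr2f2, an orphan nuclear receptor also called COUP-TFII, was the higher one, with log2 signals of 8.10, 6.62 and 6.59. It was above the GFP negative population by 2.86-fold and above GFP low cells by 2.80-fold, and its other probes were not detected. Tgm2, a transglutaminase strongly induced by retinoic acid in several cell types, had 5.86, 6.34 and 7.32 and was 2.75-fold lower in the GFP high than the GFP negative population. Pdgfra, a growth factor receptor of mesenchyme that also stands among the mesenchyme markers above, was detected in GFP negative cells only, at 4.29, 4.87 and 6.78, and was lower in the GFP high population by at least 3.15-fold. Cdx1, a caudal homeobox gene, was detected in GFP high cells only, at 5.64, 4.63 and 4.68, and was at least 1.43-fold higher than in GFP low cells.

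Hoxb1, an anterior Hox gene with well-known retinoic acid response elements, was highest in GFP low cells, as Stra6 was. Unlike Stra6, its brightest probe was also higher in GFP high than in negative cells, by 0.54 in log2. Its log2 signals were 7.08, 7.75 and 6.54, and it was 2.31-fold higher in the GFP low than the GFP negative population. A second probe gave 6.67, 7.38 and 6.50, again highest in GFP low cells, with a log2 difference of 0.88 against GFP negative cells. For GFP high against negative cells this probe gave 0.17, within the between-probe SD of 0.335. The contrast with Stra6 therefore rests on 1 probe. Hoxb5, the target with the brightest probe, gave 14.03, 13.98 and 13.47, and was 1.48-fold higher in GFP high and 1.43-fold higher in the GFP low than the GFP negative population.

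**Figure D5:**
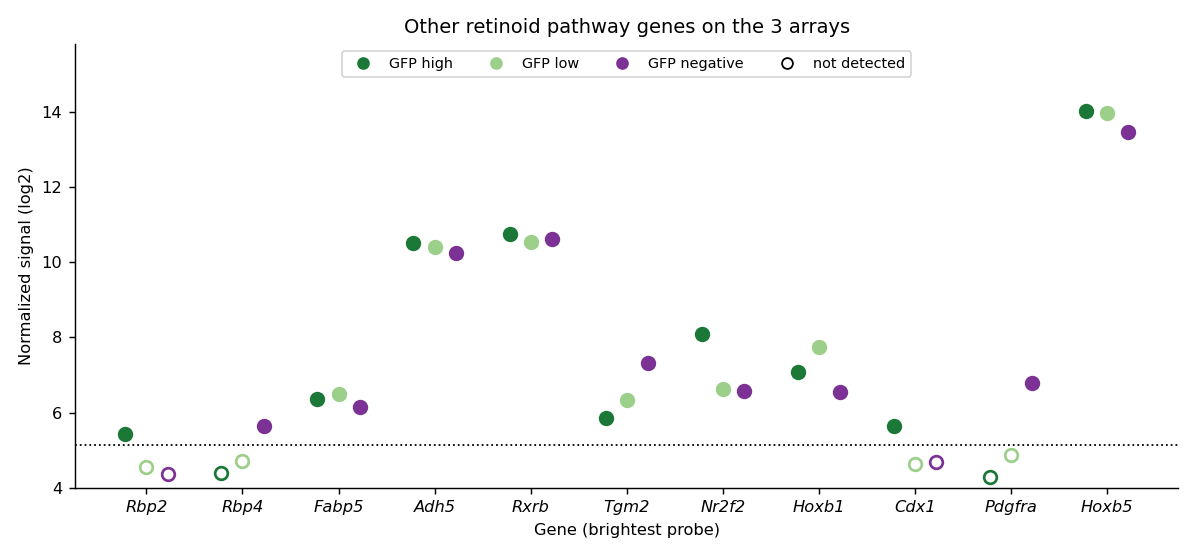
Normalized log2 signal (y axis) of named genes from the pathway lists (x axis, brightest probe) on the 3 arrays, with open points where not detected and the lowest detected signal dotted. Nr2f2 stands highest in GFP high cells, Hoxb1 in GFP low cells and Tgm2 in GFP negative cells, while Adh5 and Rxrb lie within 0.25 between arrays.

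Only Crabp1 and Cyp26a1 were detected on all arrays with a range of at least 1 on the log2 scale, and for these the genes of most like pattern were sought among 7457 others detected on all arrays. Likeness was the Euclidean distance between log2 signals centred on each gene's mean over the 3 arrays. Closest to Crabp1 were Tmem179 at 0.02, Iqsec3 at 0.03 and Ebf3 at 0.05, and 44 genes lay within 0.2. Closest to Cyp26a1 were Evc at 0.01, Nes at 0.06 and Timp3 at 0.08, and 27 genes lay within 0.2. Nes encodes nestin, an intermediate filament protein of neural progenitors, and its log2 signals were 9.85, 10.05 and 11.23. With 3 arrays such likeness is only a shared order and size of steps.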

How the data were processed

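RNA of the 3 sorted populations was measured on an Illumina bead array of 25697 probes. The authors deposited a non-normalized linear signal intensity per probe, per the file headers, and a detection p-value beside it, in steps of 1 in 798. Its lowest intensities, 76.7 to 79.4, show that background had not been subtracted. A second table deposited by the authors holds linear intensities with 47.5% of probes at its floor of 10, and how it was normalized is not given in the sources used here. Over 5310 probes above 300, log2 differences from the mean of the arrays were compared between both tables, and r was 0.991 to 0.994. This tied the columns of the second table to the arrays and gave the direction. A correlation does not depend on scale, so it does not settle the scale. GenomeStudio is named per the submitters' processing notes.

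The intensities were processed in limma 3.58.1 (R 4.3.3): normexp correction based on detection p-values, an added offset of 16, quantile normalization, then log2; further steps used Python 3.11.15. The steps were tested on simulated data. Platform annotation gave 23978 probes 1 symbol, 0 several and 1719 none. Each gene was represented by its brightest probe over the 3 arrays. A gene entered a comparison if detected on at least 1 of its 2 arrays. Where the dimmer array did not detect it, the fold is a bound against the higher of its own signal and the lowest detected signal there. Named genes were all members, every detected pathway gene past 2-fold, the brightest detected gene of each list and the 3 genes nearest in pattern. The members and lists were chosen with earlier results of these data known. Having 1 array per group allowed no test and limits the precision. Alternatives covered background, offset, normalization, probe choice, detection and the value table.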

Additional observations from a re-analysis of the deposited data

How the results depend on the processing

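Under 8 alternatives, 168 of 182 values of single members moved by less than the between-probe SD, 14 moved by more and 0 past 2-fold changed sign. With no background correction or an offset of 50, the members lower by 2-fold or more than in GFP negative cells went from 1 to 0 in both GFP high and GFP low cells, since Cyp26a1 is dim. In GFP high against low cells, 1 member (Stra6) was lower by 2-fold or more without quantile normalization and in the deposited value table, where 1 (Aldh1a2, at the floor of 10 in GFP low cells) was higher. There, 2 members were higher by 2-fold or more in the GFP low than the GFP negative population. For the 5 pathway lists, the numbers higher and lower in GFP high against negative cells, 2 and 3 in the main processing, were 1 and 1 without background correction or over genes detected on both arrays, 1 higher with an offset of 50, and 5 and 6 in the value table. In GFP high against low cells, 2 higher became 0 without background correction and 1 with an offset of 50, without quantile normalization or over genes detected on both arrays. In GFP low against negative cells, 1 higher and 1 lower became 0 and 0 without background correction, 0 higher with an offset of 50, 2 higher without quantile normalization, 0 lower over genes detected on both arrays, and 2 and 5 in the value table. The cause was not tested beyond the construction of each alternative. Over all genes detected in GFP high or negative cells, 602 were higher by 2-fold or more and 851 lower; these were 258 and 437 without background correction, 356 and 567 with an offset of 50, and 903 and 1187 in the value table. In GFP high against low cells, 93 and 351 became 37 and 145, 49 and 199, and 300 and 597 under the same settings. In GFP low against negative cells, 287 and 228 became 105 and 77, 165 and 107, and 510 and 542, so more genes were lower than higher in the value table alone of these. No paired analysis was possible because each population had 1 array and the result comes from no test.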

Other observations

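The DR5 search, made after member values were known, found the repeat in windows of 31 genes, 8 of which had a probe and 5 a detected brightest probe. Of these 5, 3 were lower by 2-fold or more in the GFP high than the GFP negative population, against 9.88% of all 8613 genes. With 5 genes this count says nothing about DR5 genes as a set. Besides Cyp26a1, the lower ones were Blvrb, a biliverdin reductase abundant in red cells, and Hbb-y, an embryonic beta-like globin. Blvrb had log2 signals of 6.46, 7.54 and 8.37 in GFP high, low and negative cells, a 3.75-fold difference between the first and the last. Hbb-y had 4.34, 5.15 and 9.02 and was not detected in GFP high cells. Rarb and Tnfsf13b, a cytokine of the TNF family, had log2 differences of 0.04 and 0.36 between GFP high and negative cells, Tnfsf13b being detected on 1 array.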
